A study of Rattus norvegicus with 8 samples.

Results

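Metabotropic glutamate receptors and Homer scaffolds were followed in medial prefrontal cortex, a region involved in withholding actions, of impulsive and non-impulsive rats. The 9 genes, taken by symbol, are the receptor genes Grm5, Grm2, Grm3, Grm4, Grm7 and Grm8 and the scaffold genes Homer1, Homer2 and Homer3, out of 17168 genes listed for each library. Among these 9 genes, receptor group I is Grm5, group II is Grm2 and Grm3, and group III is Grm4, Grm7 and Grm8. RNA sequencing covered 8 libraries of cortex homogenate from male Sprague-Dawley rats, 4 of them from highly impulsive rats (HI, high motor impulsivity) and 4 from rats of low motor impulsivity (LI). HI and LI are the top and bottom quartiles of premature responding in the 1-CSRT, a serial reaction time task with a single choice, where a rat must wait for a cue before it responds. The labels name no drug, genotype, age or litter and do not state outright that each library is a separate rat, so p-values measure the spread between these libraries, which may be partly technical.

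Metabotropic glutamate receptors are G protein-coupled receptors that tune synapses more slowly than the glutamate-gated channels. Group I receptors couple to Gq, phospholipase C and calcium release and sit mainly on the postsynaptic side. Group II and group III receptors couple to Gi/o, lower cyclic AMP and in large part restrain transmitter release from terminals. Homer proteins bind a proline-rich motif in the tail of group I receptors and link them to inositol trisphosphate receptors and Shank scaffolds; the short form of Homer1, induced by neuronal activity, lacks the coiled coil that joins Homers together.

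Grm5 and Homer3 were the genes among the 9 whose HI and LI libraries did not overlap, Grm5 with HI above and Homer3 with HI below, and neither passed the adjusted threshold. The 250 bases before an annotated start of each, on the gene's strand, are shown with those of Homer1, the most abundant of the 9, to set the members the results turn on side by side. They come from the RefSeq table of build GRCr8, in which 5 of the 9 genes had an entry, and capitals mark TATAAA on either strand.
Grm5: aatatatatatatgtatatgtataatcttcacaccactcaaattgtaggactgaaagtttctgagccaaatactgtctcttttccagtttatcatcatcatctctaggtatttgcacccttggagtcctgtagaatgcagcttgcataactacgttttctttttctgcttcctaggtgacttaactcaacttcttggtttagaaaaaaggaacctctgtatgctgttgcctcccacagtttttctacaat
Homer3: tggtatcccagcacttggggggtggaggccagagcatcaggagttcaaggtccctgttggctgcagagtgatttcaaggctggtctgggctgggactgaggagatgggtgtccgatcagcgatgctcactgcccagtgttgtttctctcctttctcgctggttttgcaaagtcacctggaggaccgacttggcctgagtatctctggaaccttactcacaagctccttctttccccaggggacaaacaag
Homer1: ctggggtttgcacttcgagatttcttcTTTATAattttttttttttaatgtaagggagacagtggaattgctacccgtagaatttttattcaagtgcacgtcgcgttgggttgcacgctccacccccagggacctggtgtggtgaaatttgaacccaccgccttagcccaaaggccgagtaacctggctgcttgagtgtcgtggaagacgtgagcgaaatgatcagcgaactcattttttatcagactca
These windows are chr1:150733503-150733752 on the plus strand for Grm5, chr16:19174599-19174848 on the minus strand for Homer3 and chr2:26278762-26279011 on the plus strand for Homer1. The Homer1 window ends at the outermost annotated start of the gene. The Grm5 and Homer3 windows belong to starts that lie 11042 and 2103 bases inside their genes. The bases G and C make up 36.4% of the Grm5 window, 55.2% of the Homer3 window and 46.4% of the Homer1 window, against a median of 51.2% over 33469 windows of the same length. TGACG (the half-site of the cyclic AMP response element), TGACGTCA (the full element, which contains the half-site), CACGTG (an E-box) and GGGCGG (a GC box) were searched on both strands and not found in these 3 windows. They occur in 18.2%, 1.59%, 5.59% and 30.5% of all windows, in the order named. TATAAA was found once, in the Homer1 window, and occurs in 12.9% of all windows. The deposited tables hold no binding or accessibility data, so the windows are descriptions only.

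Total counts per library ranged from 7354416 to 9476656. Ribosomal RNA took from 0.406% to 25.5% of counts in HI and from 0.418% to 6.42% in LI, with the highest share in HI2 and the lowest in HI4 and LI3. HI4 and LI3 also stood apart on the first principal component of log2 expression, at 51.0 and 34.6 against values between -25.9 and 2.05 in the other libraries. Markers fixed for cortical pyramidal neurons (5 genes) were abundant in every library, with a summed level of 2890 to 3516 CPM (counts scaled to library size) in HI and 2717 to 3135 CPM in LI. Oligodendrocyte markers (lower in HI in 5 of 5) summed to 1847 to 1946 CPM in HI and 1599 to 6062 CPM in LI, and striatal markers (lower in 4 of 4) to 122 to 161 CPM in HI and 138 to 463 CPM in LI, in both cases with LI2 highest. Microglia markers, lower in HI in 4 of 4, summed to 154 to 173 CPM in HI and 178 to 193 CPM in LI, with no overlap, and interneuron markers, lower in 4 of 5, to 500 to 605 CPM in HI and 576 to 774 CPM in LI. Meningeal markers, higher in HI in 2 of 2 tested, summed to 184, 45.6, 36.5 and 16.1 CPM in HI1 to HI4. In LI they summed to 7.18 to 32.5 CPM, so the groups overlapped. The part of these cell types in the values below was not tested. Where leaving out HI4, LI3 or LI2 moved a value of the 9 genes by over 1.5 times or turned its sign, both values are given.

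Per transcript length and on average over the 8 libraries, Homer1 was the most abundant of the 9 genes and Grm5 the most abundant receptor. Homer1 averaged 83.6 ± 22.3 TPM (the deposited abundance per transcript length; SD over 8 libraries), Grm5 57.6 ± 11.8 TPM, Grm2 52.6 ± 12.3 TPM and Grm3 47.0 ± 6.85 TPM. A lower tier held Grm4 at 29.5 ± 7.42 TPM, Grm7 at 28.3 ± 3.59 TPM and Homer2 at 22.2 ± 3.49 TPM. Grm8 stood at 16.4 ± 3.55 TPM and Homer3 at 16.3 ± 3.95 TPM. Homer1 lay above Grm5 in 7 of the 8 libraries and Grm3 above Grm4 in 7 of 8, whereas Grm4 and Grm7, and Grm8 and Homer3, changed places, each being the higher in 4 of 8. The ranges of every pair of neighbours in this order overlapped over the 8 libraries. Grm5 lay above Grm2 in 4 of 4 HI libraries and in 2 of 4 LI libraries. The LI mean was higher for Grm2, at 53.7 TPM against 47.7 TPM for Grm5.

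**Figure D1:**
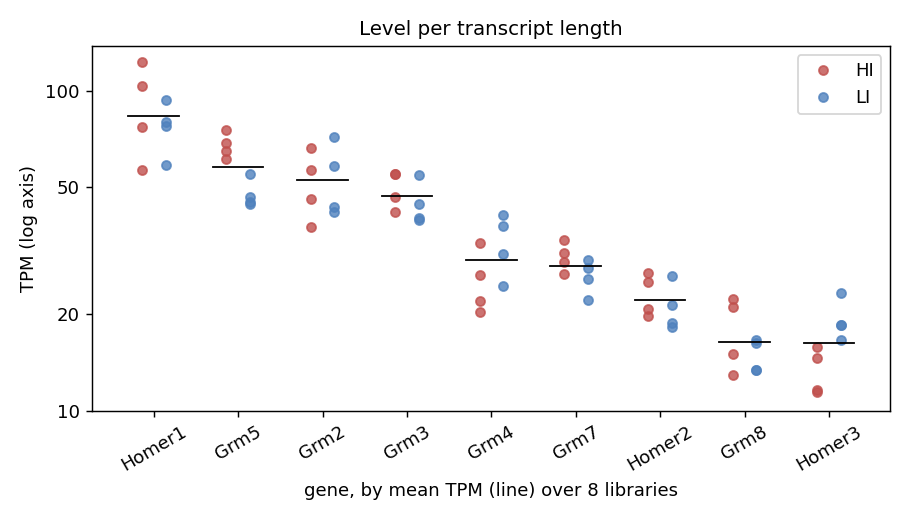
Deposited TPM of each gene (log axis) in every HI and LI library, with genes ordered by the mean over 8 libraries (line). Homer1 leads at 83.6 TPM, and Grm8 and Homer3 close the order at 16.4 and 16.3 TPM.

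HI and LI were then compared gene by gene, on counts scaled to CPM, over all 11631 genes with enough reads. All 9 genes were among them, and they were chosen with earlier results of these data known. With edgeR's quasi-likelihood test and Benjamini-Hochberg adjustment, 0 of the 9 passed an adjusted p of 0.1, and the background was 0% of genes called higher and 0% called lower. At an unadjusted p under 0.05, with no adjustment, there was 1 gene of the 9 higher (Grm5) and 1 lower (Homer3), where the background over all genes was 3.07% higher and 1.09% lower. DESeq2 called 1 of the 9, Grm5, with a background of 0.462% of genes called higher and 0.0257% lower. Fisher's exact test on summed counts, which ignores the spread between libraries, called 7 of the 9, with a background of 12.7% higher and 44% lower. The log2 fold changes (HI minus LI) of 6 of the 9 were above 0, as were 48.5% of all genes tested, and the median was 0.15 over the 9 genes and -0.01 over all genes. Without HI4 and LI3 the count of calls by edgeR was again 0.

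**Figure D2:**
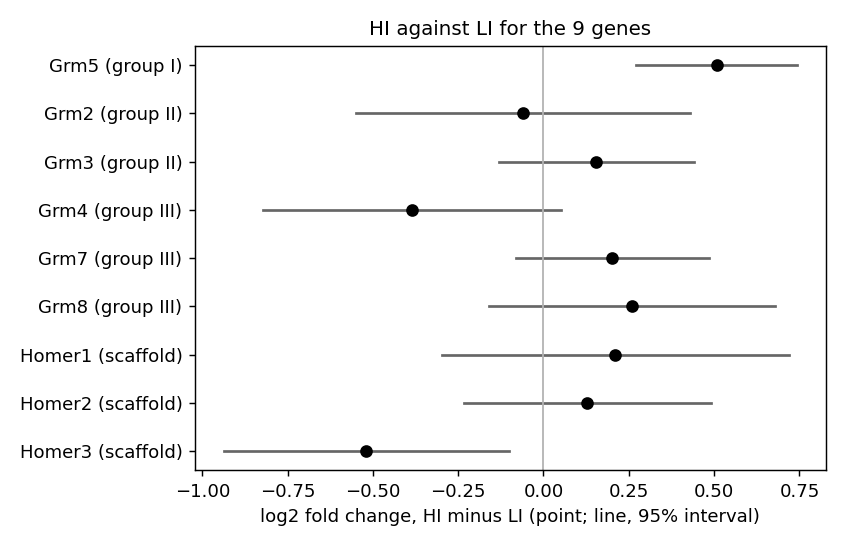
Log2 fold change of each gene, HI minus LI (points), with the 95% interval from edgeR's quasi-likelihood fit (lines), grouped by receptor class. The intervals of Grm5 and Homer3 exclude 0, on opposite sides, and neither gene passed the threshold after adjustment over all genes.

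Grm5, the group I receptor, had 138, 128, 116 and 126 CPM in HI1 to HI4, against 86.3, 99.8, 88.9 and 82.3 CPM in LI1 to LI4. Every HI library was higher than every LI library, as in 2.31% of all genes tested. The means were 127 ± 9.17 CPM for HI and 89.3 ± 7.49 CPM for LI (± SD of 4 libraries), and the log2 fold change was 0.51 ± 0.11 (SE), with a 95% interval of 0.27 to 0.74. Grm5 had the 5th smallest p of the 11631 genes, but its adjusted p was 1.00 in edgeR's quasi-likelihood test, and 0.00343 by DESeq2. Its log2 fold change lay between 0.46 and 0.57 when each library was left out in turn, and was 0.51 without HI4 and LI3 together. It was 0.45 with each library's slope on transcript length removed (limma). The rank of Grm5 by p moved with the libraries used, from 4 without HI3 to 18 without HI1. In bulk tissue a difference of this kind cannot be told apart from a difference in the number of cells that express the gene.

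Group II receptors did not differ beyond the spread between libraries. Grm2, an autoreceptor of glutamatergic terminals, had 142, 107, 125.2 and 80.8 CPM in HI1 to HI4, against 161, 92.2, 93.5 and 127 CPM in LI1 to LI4. The groups overlapped, with library 1 the highest in each, and the log2 fold change was -0.06 ± 0.22 (SE). Its sign turned without HI4 (0.07) and without LI1 (0.12), and it was -0.16 without LI2, -0.16 without LI3, -0.03 without HI4 and LI3 together and -0.12 with each library's slope on transcript length removed (limma). The expected counts of Grm2 were not whole numbers in all 8 libraries, while those of the other 8 genes were whole; the source of the fractions was not tested. Grm3, the group II receptor that is also prominent on astrocytes, had 86.0, 70.9, 75.3 and 86.7 CPM in HI1 to HI4, against 66.0, 85.2, 72.6 and 62.8 CPM in LI1 to LI4. LI2, the library with the most oligodendrocyte and striatal marker RNA, lay inside the HI range, and so did LI3. The Grm3 log2 fold change was 0.15 ± 0.13 (SE), 0.25 without LI2 and 0.09 without LI4. Astrocyte markers were lower in HI in 3 of 5 and higher in 2 of 5, with summed levels of 1840 to 2506 CPM in HI and 1907 to 2434 CPM in LI; their part in the Grm3 values was not tested.

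Group III receptors went in different directions and none passed the threshold. Grm4, a presynaptic receptor, had 30.9, 36.2, 41.8 and 50.8 CPM in HI1 to HI4, against 39.1, 46.7, 59.98 and 63.0 CPM in LI1 to LI4. HI4 lay above both LI1 and LI2, so the groups overlapped, and the log2 fold change was -0.39 ± 0.20 (SE), with a 95% interval of -0.82 to 0.05. It was -0.28 without HI1, -0.52 without HI4, -0.51 without LI1 and -0.45 without HI4 and LI3 together. The last 3 of these, the replicate block (-0.38) and the length correction (-0.42) gave an unadjusted p under 0.05, and none passed after adjustment over all genes by edgeR or limma. Grm7, a receptor of the active zone with low affinity for glutamate, had 54.2, 46.0, 51.0 and 46.3 CPM in HI1 to HI4, against 49.2, 44.0, 42.8 and 35.8 CPM in LI1 to LI4. LI1 lay inside the HI range, the log2 fold change was 0.20 ± 0.13 (SE), and it was 0.12 without LI4. Grm8, the least abundant of the 6 receptors, had 19.3, 18.02, 29.6 and 27.2 CPM in HI1 to HI4, against 18.1, 17.04, 22.3 and 21.3 CPM in LI1 to LI4. In both groups libraries 3 and 4 were the high ones, and the log2 fold change of 0.26 ± 0.19 (SE) was 0.13 without HI3.

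**Figure D3:**
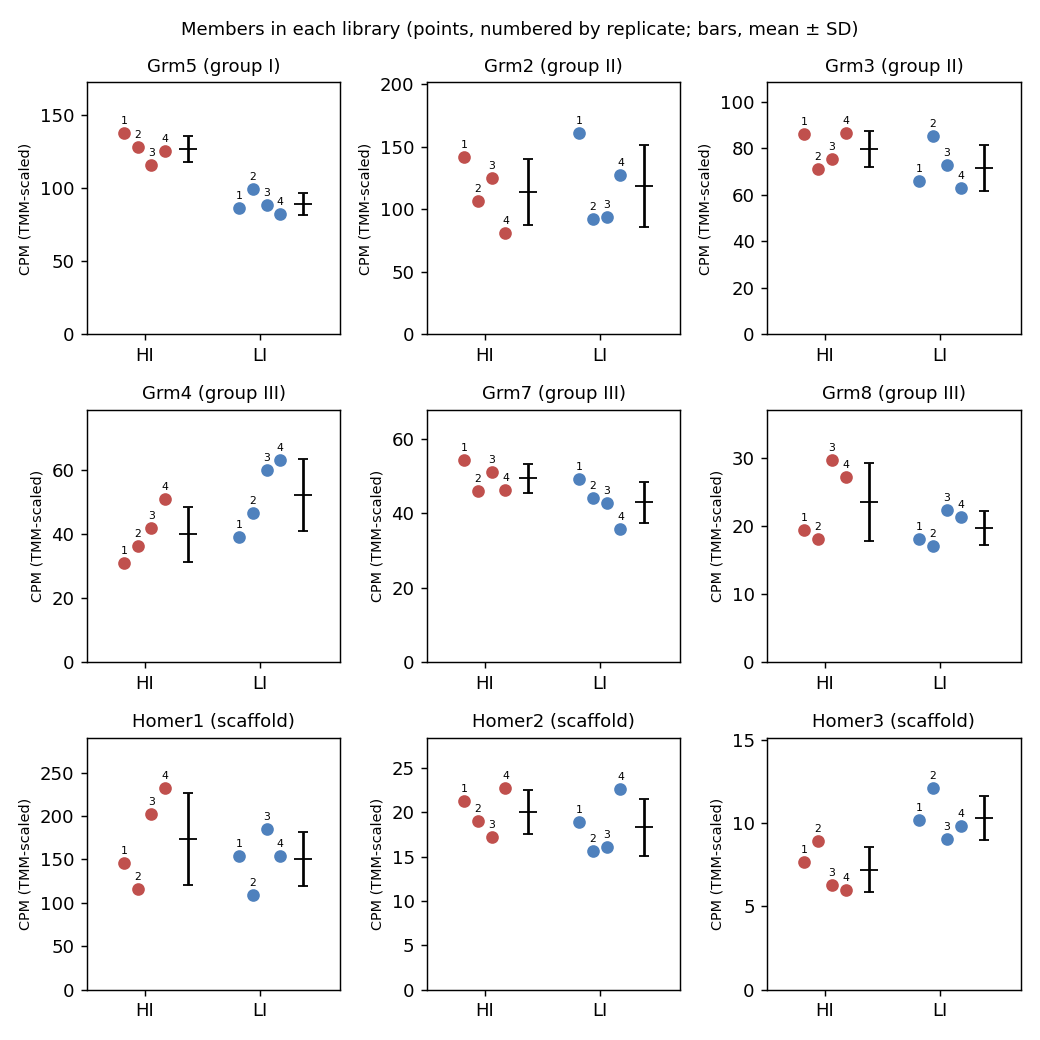
TMM-scaled CPM of each gene in every library (points, numbered by replicate), HI left of LI, with the mean ± SD of 4 libraries beside each group. All HI points lie above all LI points in Grm5 (127 against 89.3 CPM on average) and below them in Homer3 (7.21 against 10.3 CPM).

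Homer1 varied more between libraries than between the groups. It had 145, 116, 202 and 232 CPM in HI1 to HI4, against 154, 110, 185 and 154 CPM in LI1 to LI4. HI4 and LI3, the libraries with the least ribosomal RNA, were the highest of their groups, and HI2 and LI2, with the most, were the lowest. The log2 fold change was 0.21 ± 0.23 (SE), with a 95% interval of -0.30 to 0.72, and it was 0.04 without HI4, 0.09 without LI2, 0.32 without LI3, 0.15 without HI4 and LI3 together and 0.13 with the length slope removed. The tables list 1 Homer1 transcript, of 4049 bases in every library, so the short and long forms of Homer1 cannot be separated. The 5 immediate early genes fixed as markers of recent activity (Fos, Egr1, Arc, Nr4a1 and Junb) had higher means in HI in 5 of 5. They summed to 1024, 730, 1168 and 980 CPM in HI1 to HI4, against 555, 435, 654 and 1100 CPM in LI1 to LI4. HI2 and LI2 were the lowest of their groups here as for Homer1, while LI4, highest for the early genes, stood in the middle of LI for Homer1; the part of recent activity in Homer1 was not tested.

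Homer2 and Homer3 were scarce. Homer2 had 21.3, 19.01, 17.2 and 22.8 CPM in HI1 to HI4, against 18.9, 15.6, 16.1 and 22.6 CPM in LI1 to LI4. Its groups overlapped, with a log2 fold change of 0.13 ± 0.16 (SE), 0.24 without LI4, 0.06 without LI2, 0.06 without HI4, 0.07 without LI3 and 0.0049 without HI4 and LI3 together. Homer3 had 7.65, 8.93, 6.27 and 5.99 CPM in HI1 to HI4, against 10.2, 12.1, 9.06 and 9.84 CPM in LI1 to LI4. Every HI library was lower than every LI library, as in 1.14% of all genes tested, although HI2 and LI3 nearly met. LI2, highest in oligodendrocyte markers, was also the highest for Homer3. The means were 7.21 ± 1.36 CPM for HI and 10.3 ± 1.30 CPM for LI (± SD of 4 libraries), and the log2 fold change was -0.52 ± 0.19 (SE) with a 95% interval of -0.94 to -0.10 and an adjusted p of 1.00 (edgeR). Homer3 rested on 45 to 98 reads per library. Counting error alone gives a coefficient of variation of 13.1% in HI and 10.6% in LI at that depth, where the observed values were 18.8% and 12.6%. The log2 fold change was -0.43 without LI2, -0.46 without HI3 and -0.63 without HI2. Without LI2, and likewise without HI3, Homer3 no longer had an unadjusted p under 0.05 in edgeR's test.

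The mix of receptor groups within a library does not depend on library scaling. Grm5 took 28.4%, 30.3%, 25.1% and 28.0% of the summed TPM of the 6 receptors in HI1 to HI4, against 20.1%, 24.4%, 21.9% and 20.02% in LI1 to LI4. The lowest HI share lay just above the highest LI share. Group II (Grm2 and Grm3) held 41.6 ± 3.15% in HI and 44.5 ± 3.91% in LI, and group III (Grm4, Grm7 and Grm8) held 30.5 ± 3.67% in HI and 33.9 ± 3.45% in LI (± SD of 4 libraries), with overlapping libraries in both. In summed TPM, Grm5 stood at 67.6 ± 6.09 in HI and 47.7 ± 5.01 in LI, group II at 101 ± 14.7 in HI and 98.2 ± 10.4 in LI, and group III at 73.7 ± 9.97 in HI and 74.8 ± 6.04 in LI. Over all 6 receptors the sum was 242 ± 21.3 TPM in HI and 221 ± 5.55 TPM in LI, and HI2 at 214 TPM lay within the LI range of 213 to 225 TPM. Among the Homers, Homer1 took 60.7% to 76.8% in HI and 58.1% to 72.8% in LI, and Homer3 took 7.10% to 16.9% in HI and 12.9% to 23.3% in LI. The shares follow from the genes above and were not tested.

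**Figure D4:**
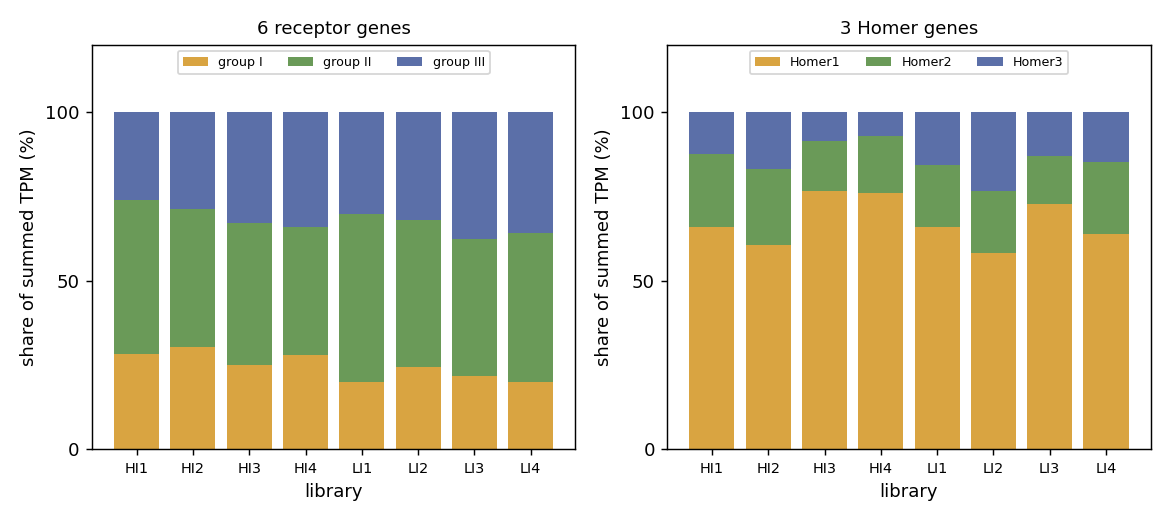
Share of summed TPM (%) held by receptor groups I to III among the 6 receptor genes (left) and by each Homer among the 3 Homer genes (right), by library. The group I share lies between 25.1% and 30.3% in HI libraries and between 20.02% and 24.4% in LI libraries.

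Signalling genes downstream of the receptors were read from lists chosen with earlier results of these data known. Their counts beside the shares of all genes are therefore descriptions and not tests, here and for each list below. Of 17 group I effector genes (Gq, phospholipase C, inositol trisphosphate receptors, protein kinase C and TRPC channels) 14 had log2 fold changes above 0, as had 48.5% of all genes, with a median of 0.10 and 0 past the adjusted threshold by edgeR. At an unadjusted p under 0.05, 4 were higher and 0 lower, where 3.07% and 1.09% of all genes were. Every HI library lay above every LI library in 3 of the 17, against 2.31% of all genes. These 3 are also the ones with the smallest p in the list, and a small p favours such separation. Trpc5, a receptor-operated cation channel, averaged 22.7 ± 3.12 CPM in HI and 16.3 ± 1.87 CPM in LI, a log2 fold change of 0.48 ± 0.15 (SE). Its lowest HI library (HI2, 18.51 CPM) and highest LI library (LI3, 18.25 CPM) nearly met. Prkce, protein kinase C epsilon, averaged 270 ± 25.4 CPM in HI and 216 ± 22.3 CPM in LI (0.32 ± 0.12). Here HI1 at 235.3 CPM and LI3 at 235.2 CPM all but met. Itpr1, an inositol trisphosphate receptor of the endoplasmic reticulum that Homers bind, had 1042, 955, 1000 and 1003 CPM in HI1 to HI4, against 873, 909, 755 and 816 CPM in LI1 to LI4 (0.25 ± 0.10). With the length slope removed the Itpr1 value was 0.12 and no longer had an unadjusted p under 0.05 (limma). By edgeR the same held for Itpr1 without HI1 (0.23), LI3 (0.21), LI4 (0.24) or HI4 and LI3 together (0.21). It also held for Prkce without HI2 (0.30), LI1 (0.25) or LI4 (0.30).

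Of 21 measured genes of the Gi/o and cyclic AMP arm used by groups II and III, 15 had log2 fold changes above 0, against 48.5% of all genes, with a median of 0.12. None passed the adjusted threshold by edgeR, with 2 higher and 0 lower at an unadjusted p under 0.05, against 3.07% and 1.09% of all genes. Adcy9, an adenylyl cyclase, averaged 32.5 ± 3.82 CPM in HI and 21.8 ± 4.74 CPM in LI, a log2 fold change of 0.58 ± 0.17 (SE), with 1 LI library inside the HI range. Prkacb, a catalytic subunit of protein kinase A, had 193, 184, 180 and 176 CPM in HI1 to HI4, against 143, 173, 132 and 130 CPM in LI1 to LI4 (0.34 ± 0.11), with no overlap. Of 11 measured binding partners of the receptors and Homers, including Shank1, Shank2 and Shank3, 6 were above 0 and 5 below, with a median of 0.05, and 0 had an unadjusted p under 0.05 in edgeR.

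The genes most like Grm5 across the 8 libraries were Srgap3, Ptprt, RGD1565819, Csmd1 and Akap10. Likeness was the root mean square difference between log2 CPM values centred on each gene's mean, which ran from 0.07 to 0.10 for these 5, against a median of 0.35 over 8737 genes with at least 10 CPM. For Homer3 they were RGD1311188, Surf1, Fance, Myo9b and Cmtm5, at 0.09 to 0.13 against a median of 0.38. Both sets were picked as the closest genes, so values under the median follow from that choice. Among the 9 genes themselves, Grm8 and Homer1 were the most alike (0.16), followed by Grm3 and Grm7 (0.17), and Homer1 and Homer3 the least (0.63).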

How the data were processed

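RNA from medial prefrontal cortex was isolated with TRIzol and RNeasy columns and sequenced on libraries made by Illumina protocols, per the labels. Each library has 1 deposited table with an expected count per gene (an estimate of reads that need not be whole), TPM, FPKM and the transcript length in bases, per the file headers. Deposited TPM values give levels between genes and the deposited FPKM values only an alternative order. The submitters' processing notes name Bowtie2 2.1.0. No source used here gives the quantifier, genome build, annotation or use of strand (each not given in the sources used here), and reads of overlapping or antisense genes may be merged.

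Expected counts were rounded, scaled by TMM and filtered with filterByExpr (minimum count 10, total 15). The HI against LI test was the quasi-likelihood F test of edgeR (edgeR 4.0.16, R 4.3.3), with Benjamini-Hochberg adjustment over 11631 genes and a threshold of 0.1, the alpha that the submitters state. They name Fisher's exact test, run here as an alternative on summed counts. The SE is the absolute log2 fold change over the square root of F, and the prior count for log2 CPM was 2. The tests were checked on simulated data with larger changes than those of the 9 genes. Their power at the sizes seen here was not checked. Alternatives used DESeq2 1.42.0, limma 3.58.1, RLE factors, other filters, a replicate block and left-out libraries. No libraries of a group agreed within sampling noise. Named genes are the 9 members, up to 3 genes a direction with an unadjusted p under 0.05 from each pathway list, and the 5 genes most like Grm5 and Homer3. Members and lists were chosen with earlier results of these data known.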

Additional observations from a re-analysis of the deposited data

How the results depend on the processing

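No gene passed in edgeR's fits: 0 higher and 0 lower with RLE factors, without a low-count filter, with 1 CPM in at least 4 libraries, with ribosomal RNA genes removed, with a replicate block, without each library in turn and without HI4 and LI3, and also 0 by limma on log2(TPM + 0.5), log2(TPM + 0.1) and length-corrected log2 CPM. DESeq2 called 36 genes higher (0.462% of 7794 with an adjusted p) and 2 lower (0.0257%), Grm5 among them (0.51), and gave Homer3 no adjusted p. Fisher's exact test on summed counts, which ignores the spread between libraries and shifts the median log2 fold change of all genes to -0.11, called 1480 higher (12.7%) and 5122 lower (44%). It called 7 of the 9: Grm5 (0.41), Grm2 (-0.16), Grm4 (-0.50), Grm7 (0.12), Grm8 (0.18), Homer1 (0.12) and Homer3 (-0.64). Grm2 ran from -0.19 to 0.12 over the left-out libraries, turning positive without HI4 and without LI1. The other 8 genes kept their sign in every setting run. Same-numbered libraries had correlations of 0.22, 0.54, -0.05 and 0.06 in their deviations from group means, so the numbers are not taken as pairs; with the replicate block Grm5 was 0.51, Grm4 -0.38 and Homer3 -0.52, and 0 genes passed. The order by TPM was the same by FPKM. The planned test of Homer1 transcript length gave no value, since it was 4049 bases in every library. In 18 groups of 4 libraries no CPM was beyond Dixon's critical value. Depth limits Homer3 (45 to 98 reads), Grm8 and Homer2 most.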

Other observations

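Genes of glutamate supply and uptake form a list that was also chosen with earlier results of these data known. In it 6 of 8 log2 fold changes in HI against LI were above 0, with a median of 0.06, and 0 passed the adjusted threshold by edgeR. At an unadjusted p under 0.05, 2 were higher and 0 lower, where 3.07% and 1.09% of all genes were. Slc1a2, the main glutamate transporter of astrocytes, had 332, 350, 291 and 398 CPM in HI1 to HI4, against 176, 261, 215 and 292 CPM in LI1 to LI4, a log2 fold change of 0.54 ± 0.17 (SE). HI3 and LI4 met within a CPM of each other and the other libraries did not overlap. Slc7a11, the cystine-glutamate exchanger that supplies glutamate outside synapses, had 152, 113, 91.4 and 146 CPM in HI1 to HI4, against 83.2, 79.6, 105 and 106 CPM in LI1 to LI4, a log2 fold change of 0.43 ± 0.18 (SE). HI3 lay inside the LI range for it. It was 0.32 without HI1 and 0.28 with the length slope removed (limma), and neither had an unadjusted p under 0.05; the same held without HI4 (0.35), without LI1 (0.37), without LI2 (0.36) and without HI4 and LI3 together (0.41). The other astrocyte transporter, Slc1a3, stood at 761 ± 97.2 CPM for HI and 752 ± 78.5 CPM for LI (mean ± SD of 4 libraries).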
